A study of Mus musculus with 30 samples.

Results

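Microglia sorted from the spinal cords of mice with experimental autoimmune encephalomyelitis (EAE) were compared between mice given an inhibitor of the kinase RIPK1 and mice given its vehicle. The comparison was between 11 of the 30 libraries of the series, 5 EAE-RIPK1inh-1 and 6 EAE-vehicle. The 4 naive microglia libraries gave a reference level and also entered the estimate of spread behind the standard errors and limma p-values. Genes with a mean of at least 1 on the log2 scale over the 11 libraries were described, which kept 10378 of the 30952 genes in the table, and 9676 of them were annotated as protein-coding.

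Female C57BL/6 mice, 8 to 10 weeks old at immunization, received MOG35-55, a peptide of a myelin protein, which sets off an autoimmune attack on the central nervous system. Once a mouse had a clinical score of around 1 it was dosed by mouth BID for 3 days with GSK'547 at 50 mg/kg (the EAE-RIPK1inh-1 group) or with 20% Captisol, a cyclodextrin that holds compounds in solution (the EAE-vehicle group). Naive mice were neither immunized nor dosed as far as the labels say. Each library came from 1 mouse, and both EAE groups shared the strain, the sex, the immunization and the sort. Microglia were gated as CD11b+ CD45int CX3CR1+ cells, so cells of intermediate CD45 that carry CD11b and CX3CR1 could pass the gate whatever their origin.

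RIPK1 is a kinase that sits below the TNF receptor. Depending on its partners it either serves as a scaffold for NF-kB signaling or, through its kinase activity, starts apoptosis through caspase-8 or necroptosis through RIPK3 and MLKL. Microglia are the resident macrophages of the central nervous system, and in EAE they lose part of their resting (homeostatic) program, present antigen on MHC class II and respond to interferons.

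Values are log2 FPKM, that is, sequenced fragments relative to a gene's exon length and to the size of the library. The authors quantile-normalized them, and a difference is the EAE-RIPK1inh-1 mean minus the EAE-vehicle mean on this scale with its standard error. The read depth is unknown because no counts can be had from these values. The number of genes with signal above the lowest tied level stood in for it. That number ran from 10729 to 20398 in the EAE-vehicle libraries and from 14105 to 14865 in the EAE-RIPK1inh-1 libraries. Across the genes described, Pearson's r between libraries was 0.76 to 0.935 within EAE-vehicle, 0.766 to 0.945 within EAE-RIPK1inh-1 and 0.765 to 0.929 between the groups, and these ranges overlapped.

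The cells carried the markers of microglia. All 10 microglial markers examined had a mean of at least 1, and their mean level was 9.10 to 9.60 in the EAE-vehicle libraries, 9.15 to 10.5 in the EAE-RIPK1inh-1 libraries and 11.1 to 11.7 in the naive ones. Transcripts of neutrophils were also present, and unevenly. The mean of the 8 neutrophil markers ran from 2.95 to 8.14 in the EAE-vehicle libraries and was 2.98, 3.31, 9.65, 1.68 and 4.38 in the EAE-RIPK1inh-1 libraries, and S100a8, which codes for a neutrophil calcium-binding protein, was the third-highest gene in the EAE-RIPK1inh-1 library 3. Of the 7 neutrophil markers and 7 monocyte markers with a mean of at least 1, all 14 had a lower mean with RIPK1inh-1, none of them called. The mean of the 8 monocyte markers was 3.27 to 6.69 with vehicle and 2.93 to 5.68 with RIPK1inh-1. T cell markers averaged 2.35 in EAE-RIPK1inh-1 library 3 and under 1 in each of the others, and markers of neurons and oligodendrocyte precursors averaged at most 0.362 and 0.462 in any of the 11 libraries. In sorted bulk samples, fewer cells of a type and less RNA per cell cannot be told apart. EAE-vehicle libraries 1 and 3 and EAE-RIPK1inh-1 library 3, whose neutrophil markers averaged above 7, are called rich in neutrophil transcripts below. Calls of list genes that were lost without them are given with their lists, by gene or by count.

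**Figure D1:**
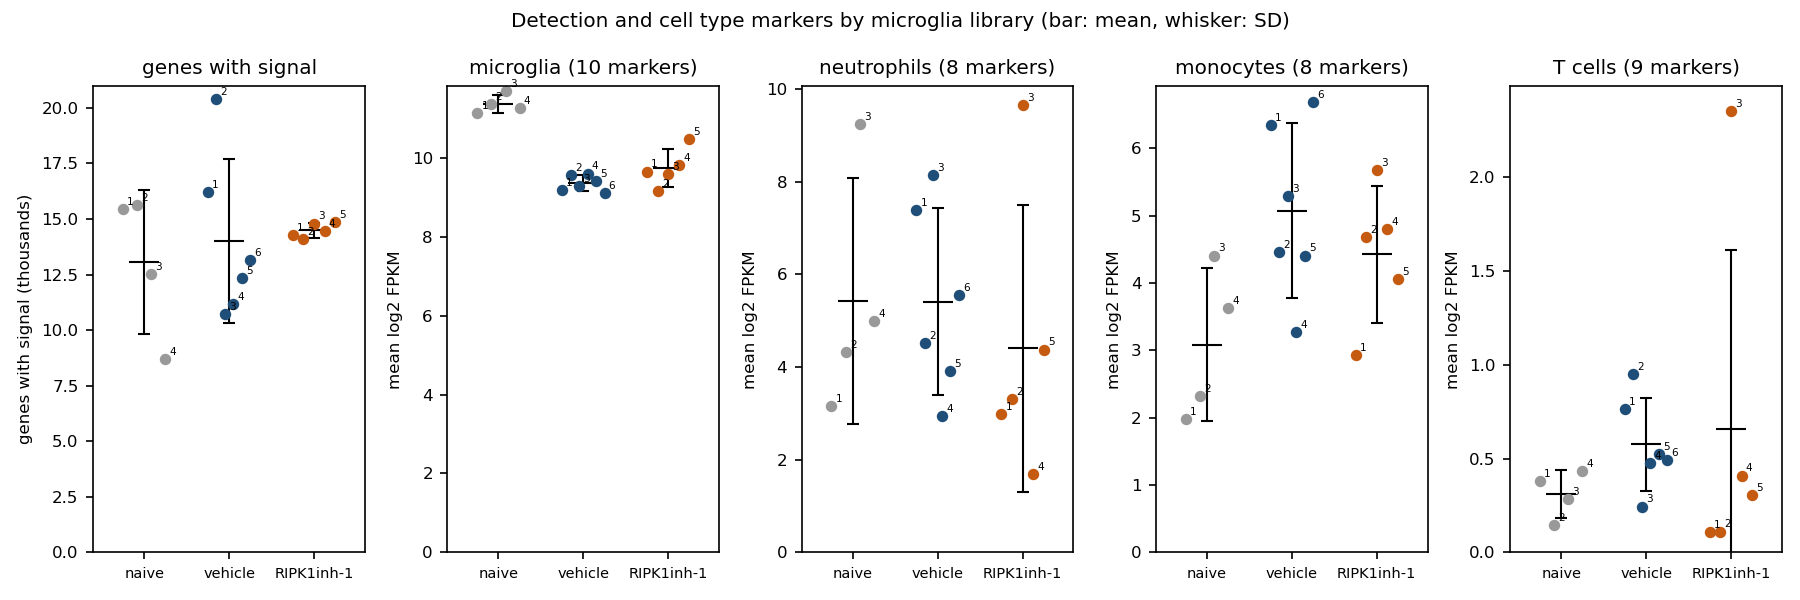
Number of genes with signal and mean level (log2 FPKM) of marker genes of 4 cell types in each microglia library. Points are libraries, numbered by replicate, bars are group means and whiskers SD. Neutrophil markers were above 7 in EAE-vehicle libraries 1 and 3, EAE-RIPK1inh-1 library 3 and naive library 3, while microglial markers stayed above 9 in each library.

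No gene differed between RIPK1inh-1 and vehicle after correction for multiple tests. The smallest Benjamini-Hochberg adjusted p was 0.93 in limma's fit over 28958 genes, and 421 of the 10378 genes described (4.06%) had an unadjusted p under 0.05. By the cutoff of the study, a fold change over 1.5 with an unadjusted p under 0.05, 386 genes were called, which is 3.72% of those described (1.76% of all genes tested). Of these, 210 (2.02%) were higher and 176 (1.70%) lower with RIPK1inh-1. The median difference over all genes described was 0.01. "Called" below has this meaning, and each called gene has an adjusted p of 0.93 or more.

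The count of called genes rested on single libraries. It was 810 without EAE-RIPK1inh-1 library 2, 251 without library 4 and 239 without library 5, and 283 without the 3 libraries with the most neutrophil transcripts. Of 55 called genes chosen by a rule to be named, 32 lost their call without those 3. That fit also had fewer mice and fewer calls in the whole table. A call lost in it therefore does not show that neutrophil transcripts made the difference. When each library was weighted by its fit to its group (limma's array weights, among the EAE libraries 0.30 for EAE-vehicle library 2 to 4.39 for EAE-RIPK1inh-1 library 5), 2266 genes were called and 78 had an adjusted p under 0.05. These counts lean on a few libraries. The weights were 0.91, 1.25, 1.36, 3.51 and 4.39 for the EAE-RIPK1inh-1 libraries. EAE-vehicle libraries 5 and 6 had 2.88 and 2.93, and the other vehicle libraries at most 0.85. Of the 386 called genes, 155 higher and 135 lower also had an exact permutation p under 0.05 over all ways to divide 11 mice into 5 and 6. Both tests used the same values of the same mice, so these counts are not separate support for the calls.

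**Figure D2:**
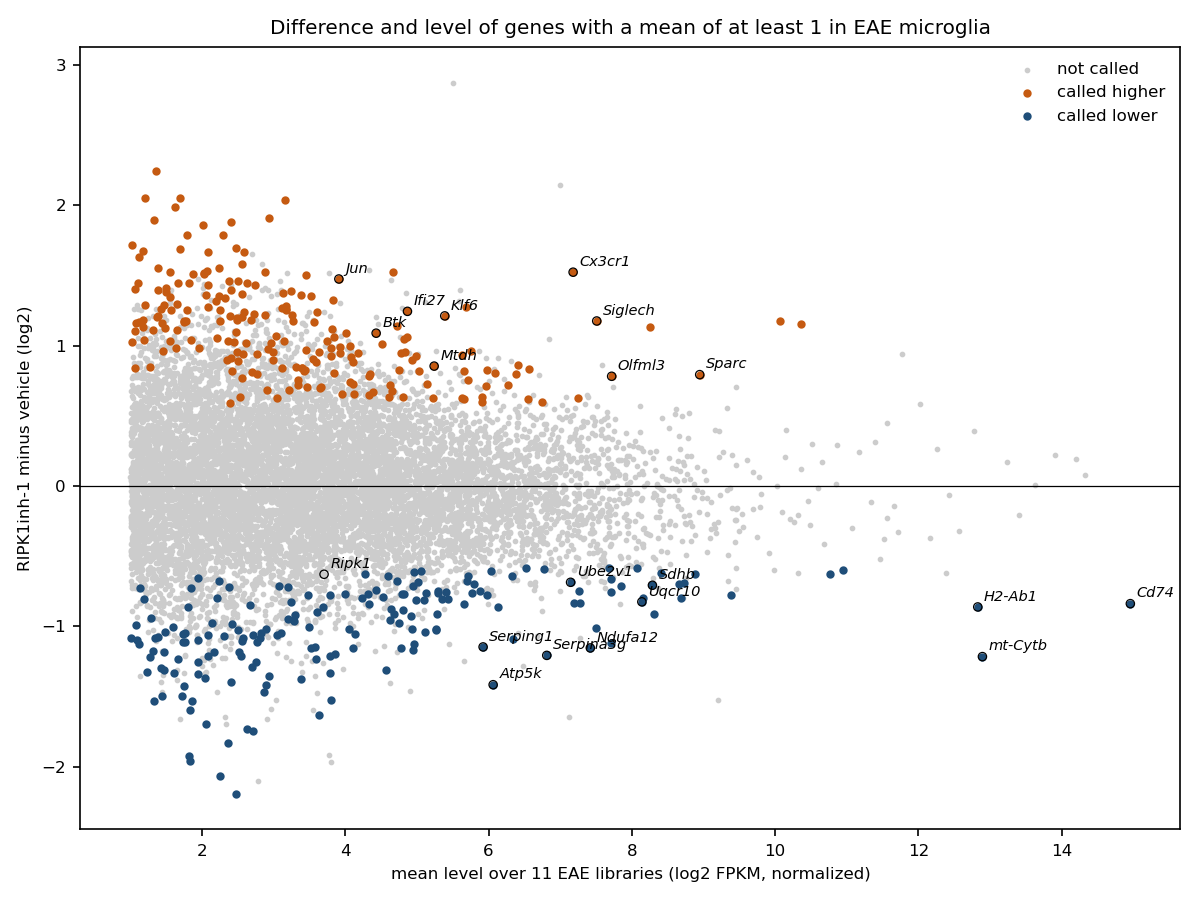
Difference between EAE-RIPK1inh-1 and EAE-vehicle (log2) against the mean level over the 11 EAE libraries (log2 FPKM) for the 10378 genes described. The 210 genes called higher are orange, the 176 called lower blue, and circled genes are named in the text. The called genes lie on both sides of 0 at low levels, and at the highest levels Cd74, H2-Ab1 and mt-Cytb lie below 0.

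The target and its partners in necroptosis were not called. Ripk1 ran from 3.44 to 4.42 (median 3.99) in the EAE-vehicle libraries and was 4.11, 3.82, 2.80, 3.37 and 2.70 in the EAE-RIPK1inh-1 libraries, a difference of -0.63 ± 0.35 (p = 0.0898, limma; p = 0.0714, exact permutation). Libraries 3, 4 and 5 of the inhibitor group were below each of the vehicle values and libraries 1 and 2 lay among them. Ripk3 ran from 1.10 to 4.26 (median 3.57) in the EAE-vehicle libraries and was 3.22, 4.08, 3.83, 3.11 and 2.94 in the EAE-RIPK1inh-1 libraries, a difference of 0.16 ± 0.62 (p = 0.802, limma; p = 0.838, exact permutation). Mlkl ran from 3.00 to 4.79 (median 3.86) in the EAE-vehicle libraries and was 1.67, 4.26, 2.61, 3.91 and 3.27 in the EAE-RIPK1inh-1 libraries, a difference of -0.69 ± 0.45 (p = 0.144, limma; p = 0.216, exact permutation), and the groups overlapped for both genes. The naive libraries held Ripk1 at 2.51 to 4.15 and Mlkl, the executor of necroptosis, at 0.14 to 0.78. A kinase inhibitor acts on the protein, so the transcript of Ripk1 does not check the dosing.

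The wider list of RIPK1 and TNF receptor signaling had 27 genes with a mean of at least 1. None was called, 13 were higher and 14 lower in sign, and the median difference was 0.00. Caspase-8 (Casp8) differed by -0.05 (p = 0.801, exact permutation) and Tnfaip3, which encodes the NF-kB inhibitor A20, by 0.45 (p = 0.182, exact permutation). The receptor Tnfrsf1a differed by 0.74 ± 0.37 (p = 0.0644, limma; p = 0.0996, exact permutation). It ran from 4.39 to 5.78 (median 5.11) in the EAE-vehicle libraries and was 5.28, 4.68, 6.38, 6.65 and 6.27 with RIPK1inh-1, so 3 of the 5 libraries stood above the vehicle range. Of 11 NF-kB subunits and inhibitors none was called, 10 were higher in sign and the median difference was 0.40, beside 0.01 over all genes. Relb differed by 0.69 (p = 0.139, exact permutation) and Nfkbia, the inhibitor that NF-kB itself induces, by 0.46 (p = 0.154, exact permutation).

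Of 18 cytokines and chemokines none was called, with 9 higher and 9 lower in sign. Tnf and Il1b had the widest differences of the list. Tnf ran from 0.00 to 4.86 (median 4.42) in the EAE-vehicle libraries and was 5.68, 4.10, 5.11, 6.17 and 4.78 in the EAE-RIPK1inh-1 libraries, a difference of 1.54 ± 0.81 (p = 0.0773, limma; p = 0.0758, exact permutation). The lowest vehicle value of Tnf was 0 in library 3, and the other vehicle libraries overlapped the inhibitor group. Il1b ran from 1.94 to 5.49 (median 2.46) in the EAE-vehicle libraries and was 4.82, 2.73, 5.39, 5.09 and 4.96 in the EAE-RIPK1inh-1 libraries, a difference of 1.52 ± 0.73 (p = 0.0555, limma; p = 0.0887, exact permutation). Neither passed the cutoff, and Il1b is also expressed by neutrophils and monocytes, whose markers varied between the libraries as given above, and their part in the difference was not tested.

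Most genes of the homeostatic program had higher means with RIPK1inh-1. Of 24 genes, 22 were higher in sign, 4 were called higher (Siglech, Cx3cr1, Olfml3 and Sparc), none was called lower, and the median difference was 0.40. Over all 10378 genes described, 5288 were higher in sign and 2.02% were called higher. Without the 3 libraries rich in neutrophil transcripts 22 were still higher in sign, 2 were called higher and the median was 0.45. That was 8.33% called, beside 2.73% over all genes described in that fit. The list mean was 7.32 ± 0.25 (SD, n = 6) with vehicle, 7.77 ± 0.41 (SD, n = 5) with RIPK1inh-1 and 9.65 ± 0.19 (SD, n = 4) in naive microglia.

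Siglech encodes a sialic acid-binding receptor that is used to tell microglia from infiltrating macrophages (chr7:55768178-55778925, GRCm38). Siglech ran from 6.60 to 7.68 (median 6.87) in the EAE-vehicle libraries and was 7.91, 7.11, 8.52, 8.15 and 9.06 in the EAE-RIPK1inh-1 libraries. Its difference was 1.17 ± 0.31 (p = 0.00183, limma; p = 0.0108, exact permutation). Only EAE-RIPK1inh-1 library 2 lay within the vehicle range, whose top was EAE-vehicle library 2, and the naive libraries were higher than both groups at 9.33 to 10.23. Siglech was called in each of the 22 alternative analyses, the one without the libraries rich in neutrophil transcripts included.

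Cx3cr1, the fractalkine receptor whose protein was used in the sort gate, had the largest called rise among protein-coding genes with a mean of at least 3 (chr9:119901616-120069879). Cx3cr1 ran from 5.98 to 7.27 (median 6.32) in the EAE-vehicle libraries and was 6.66, 5.86, 8.95, 9.16 and 9.41 in the EAE-RIPK1inh-1 libraries. Libraries 3, 4 and 5 were above each vehicle library, at the level of naive microglia (8.25 to 11.14), whereas libraries 1 and 2 were not. The difference was 1.52 ± 0.68 (p = 0.041, limma; p = 0.0758, exact permutation), and it was called in 14 of 22 alternatives and in 4 of the 11 analyses that left out 1 library.

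Olfml3 and Sparc code for secreted matrix-associated proteins of resting microglia. Olfml3 ran from 7.07 to 7.74 (median 7.28) in the EAE-vehicle libraries and was 7.91, 7.41, 8.32, 8.20 and 8.87 in the EAE-RIPK1inh-1 libraries, a difference of 0.78 ± 0.24 (p = 0.00513, limma; p = 0.0152, exact permutation). Sparc ran from 7.96 to 9.13 (median 8.51) in the EAE-vehicle libraries and was 8.98, 8.56, 9.86, 9.39 and 10.10 in the EAE-RIPK1inh-1 libraries, a difference of 0.79 ± 0.29 (p = 0.0161, limma; p = 0.0455, exact permutation). Libraries 3, 4 and 5 were above the vehicle range for Sparc, libraries 1, 3, 4 and 5 were above it for Olfml3, and EAE-RIPK1inh-1 library 2 lay within it for both. Neither was called when the 3 libraries rich in neutrophil transcripts were left out, nor was Cx3cr1.

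Other well-known homeostatic genes were not called. P2ry12 ran from 8.01 to 9.28 (median 8.34) in the EAE-vehicle libraries and was 9.83, 8.98, 7.63, 8.48 and 9.20 in the EAE-RIPK1inh-1 libraries. This purinergic receptor differed by 0.27 ± 0.36 (p = 0.475, limma; p = 0.53, exact permutation), and EAE-RIPK1inh-1 library 3 was below the vehicle range while library 1 was above it. Tmem119 differed by 0.17 (p = 0.604, exact permutation) and Csf1r, the receptor on which microglia depend, by 0.55 (p = 0.262, exact permutation). Mertk, a receptor for apoptotic cells, differed by 0.48 ± 0.21 (p = 0.0395, limma; p = 0.0498, exact permutation), under the fold cutoff. The inhibitor libraries were less alike than the vehicle ones across this list, with a median SD of 0.633 against 0.36, beside 0.657 and 0.614 over all genes described. Without EAE-RIPK1inh-1 library 5 the list had 20 genes higher in sign, 2 called and a median of 0.28, and without library 3 it had 23, 5 and 0.53. The called shares were 8.33% and 20.8%, beside 2.3% and 3.4% over all genes described in those fits.

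**Figure D3:**
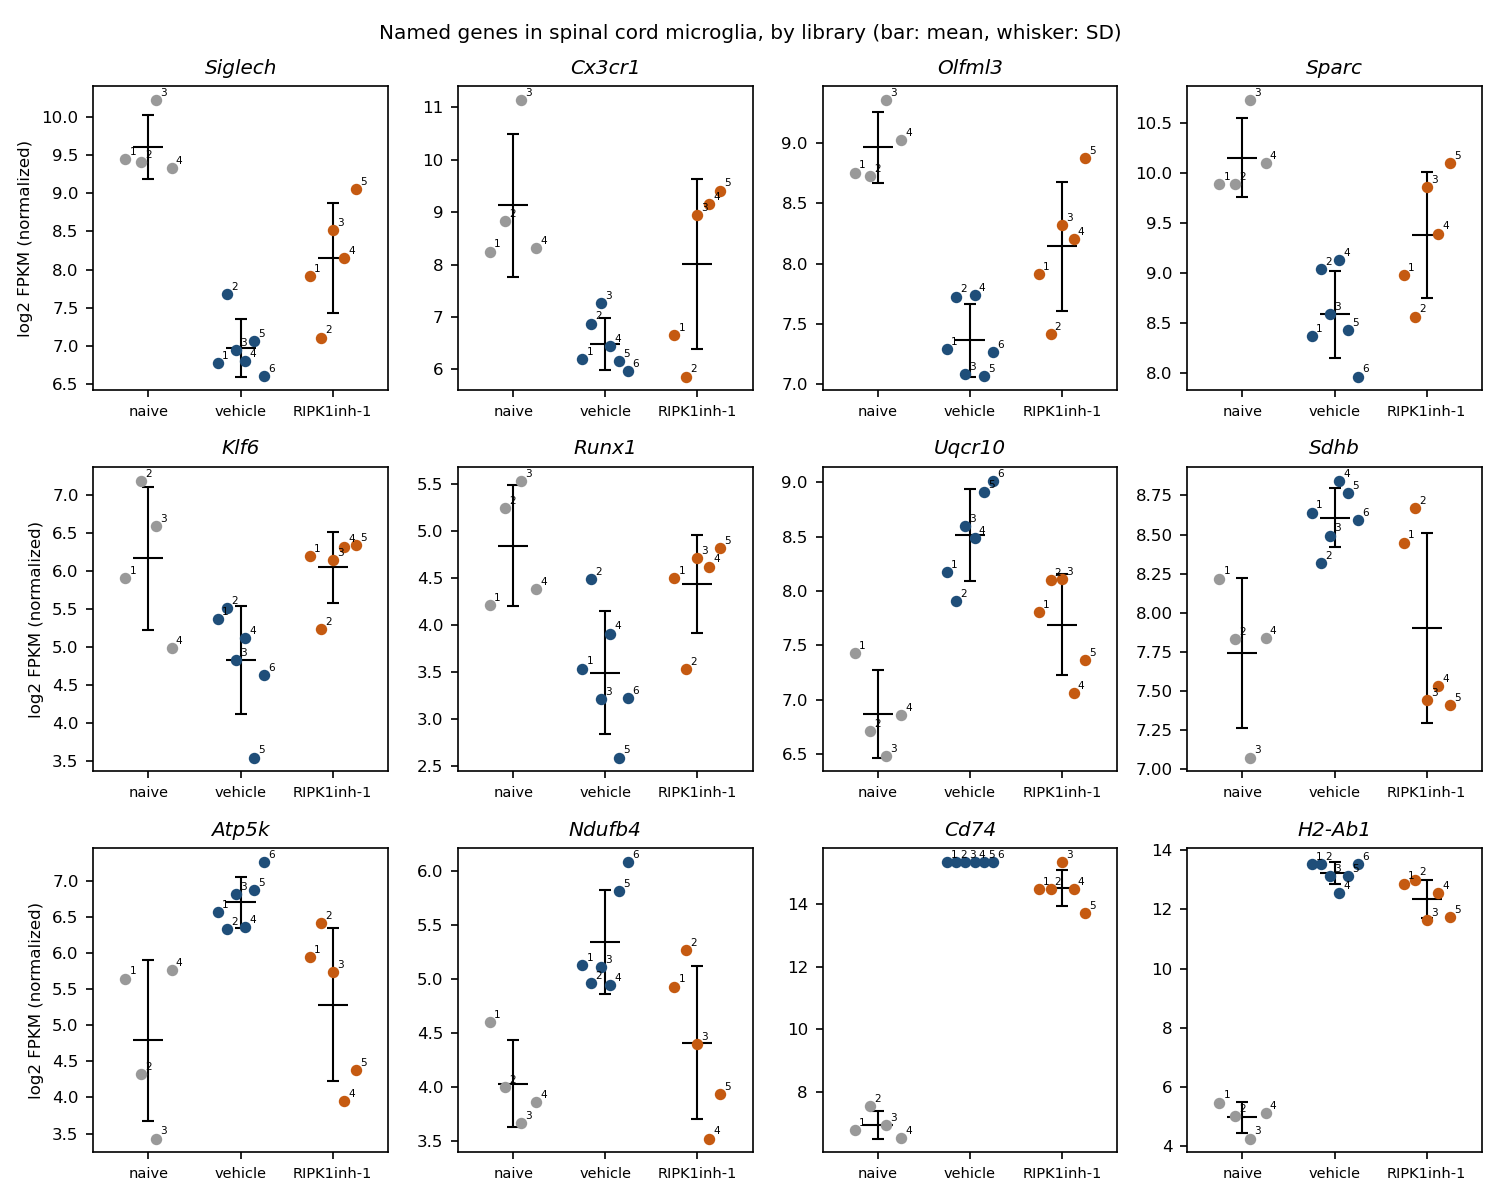
Levels (log2 FPKM) of 12 named genes in each microglia library, numbered by replicate, with group means (bars) and SD (whiskers). For Siglech and Cx3cr1 the EAE-RIPK1inh-1 libraries spread from the vehicle range up towards the naive one, and for Cd74 the 6 vehicle libraries share the value 15.34.

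Transcription factors of the lineage and immediate early genes also leaned towards RIPK1inh-1. Of 14 lineage factors, 10 were higher in sign and the median difference was 0.39. Runx1 and Maf were called (14.3%, beside 3.72% over all genes described). Runx1 ran from 2.59 to 4.49 (median 3.38) in the EAE-vehicle libraries and was 4.50, 3.53, 4.71, 4.62 and 4.82 in the EAE-RIPK1inh-1 libraries. Runx1 takes part in setting up the microglial lineage, and its difference was 0.94 ± 0.36 (p = 0.0211, limma; p = 0.0281, exact permutation). Maf differed by 0.75 ± 0.35 (p = 0.0491, limma; p = 0.0649, exact permutation), Irf8 by 0.65 (p = 0.104, exact permutation), and Spi1, which encodes PU.1, by 0.14 (p = 0.706, exact permutation). The Maf call held in 6 of 22 alternatives, and Runx1 lost its call without the 3 libraries rich in neutrophil transcripts.

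Immediate early genes are induced within minutes of a stimulus, tissue dissociation among them. Of 15 with a mean of at least 1, 14 were higher in sign, and the median difference of 0.68 was the highest of the 25 lists. Klf6 and Jun were called (13.3%, beside 3.72% over all genes described). Klf6 ran from 3.55 to 5.51 (median 4.97) in the EAE-vehicle libraries and was 6.20, 5.23, 6.15, 6.32 and 6.34 in the EAE-RIPK1inh-1 libraries. The difference was 1.21 ± 0.41 (p = 0.0104, limma; p = 0.013, exact permutation), library 2 alone lay within the vehicle range, and the call held in each of 22 alternatives. Jun ran from 2.01 to 4.69 (median 3.15) in the EAE-vehicle libraries and was 5.52, 3.39, 5.39, 4.88 and 4.38 in the EAE-RIPK1inh-1 libraries, a difference of 1.47 ± 0.58 (p = 0.0235, limma; p = 0.0325, exact permutation), and it lost the call without the libraries rich in neutrophil transcripts and in 4 of the 11 analyses that left out 1 library. Fos, the partner of Jun in AP-1, differed by 0.33 ± 1.12, and its values (6.90, 2.77, 6.19, 2.62 and 0.87 with RIPK1inh-1) spanned more than the difference. In naive microglia the list mean was 5.95 ± 0.96 (SD, n = 4), above 3.33 ± 0.52 (SD, n = 6) with vehicle and 4.01 ± 0.85 (SD, n = 5) with RIPK1inh-1.

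Genes of disease-associated microglia, a state seen around damaged tissue, showed 1 call in 24, or 4.17%, close to the 3.72% called over all genes described. Ank, a pyrophosphate transporter, was called higher at 0.96 ± 0.41 (p = 0.0351, limma; p = 0.0563, exact permutation), with values of 1.90, 1.44, 2.40, 1.56 and 2.62 with RIPK1inh-1 and 0 in EAE-vehicle libraries 4 and 5. The call on Ank held in 6 of the 11 analyses that left out 1 library and not without the 3 libraries rich in neutrophil transcripts. The list had 17 genes higher in sign and a median of 0.20. Apoe ran from 13.32 to 14.48 (median 14.34) in the EAE-vehicle libraries and was 15.34, 13.93, 12.70, 15.34 and 14.20 in the EAE-RIPK1inh-1 libraries, a difference of 0.19 ± 0.44 (p = 0.674, limma; p = 0.734, exact permutation). Apoe, a lipid carrier, was the highest gene of inhibitor libraries 1 and 4 and rank 11 in library 3. The receptor kinase Axl differed by 0.79 (p = 0.145, exact permutation), Spp1 by -0.69 (p = 0.333, exact permutation) and Clec7a by 0.58 (p = 0.11, exact permutation). The 32 lysosomal genes had a median difference of 0.28 with none called, and Ctsd, the protease cathepsin D, was 13.32 and 13.93 in libraries 4 and 5 against at most 11.73 with vehicle, for a difference of 0.94 (p = 0.141, exact permutation).

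**Figure D4:**
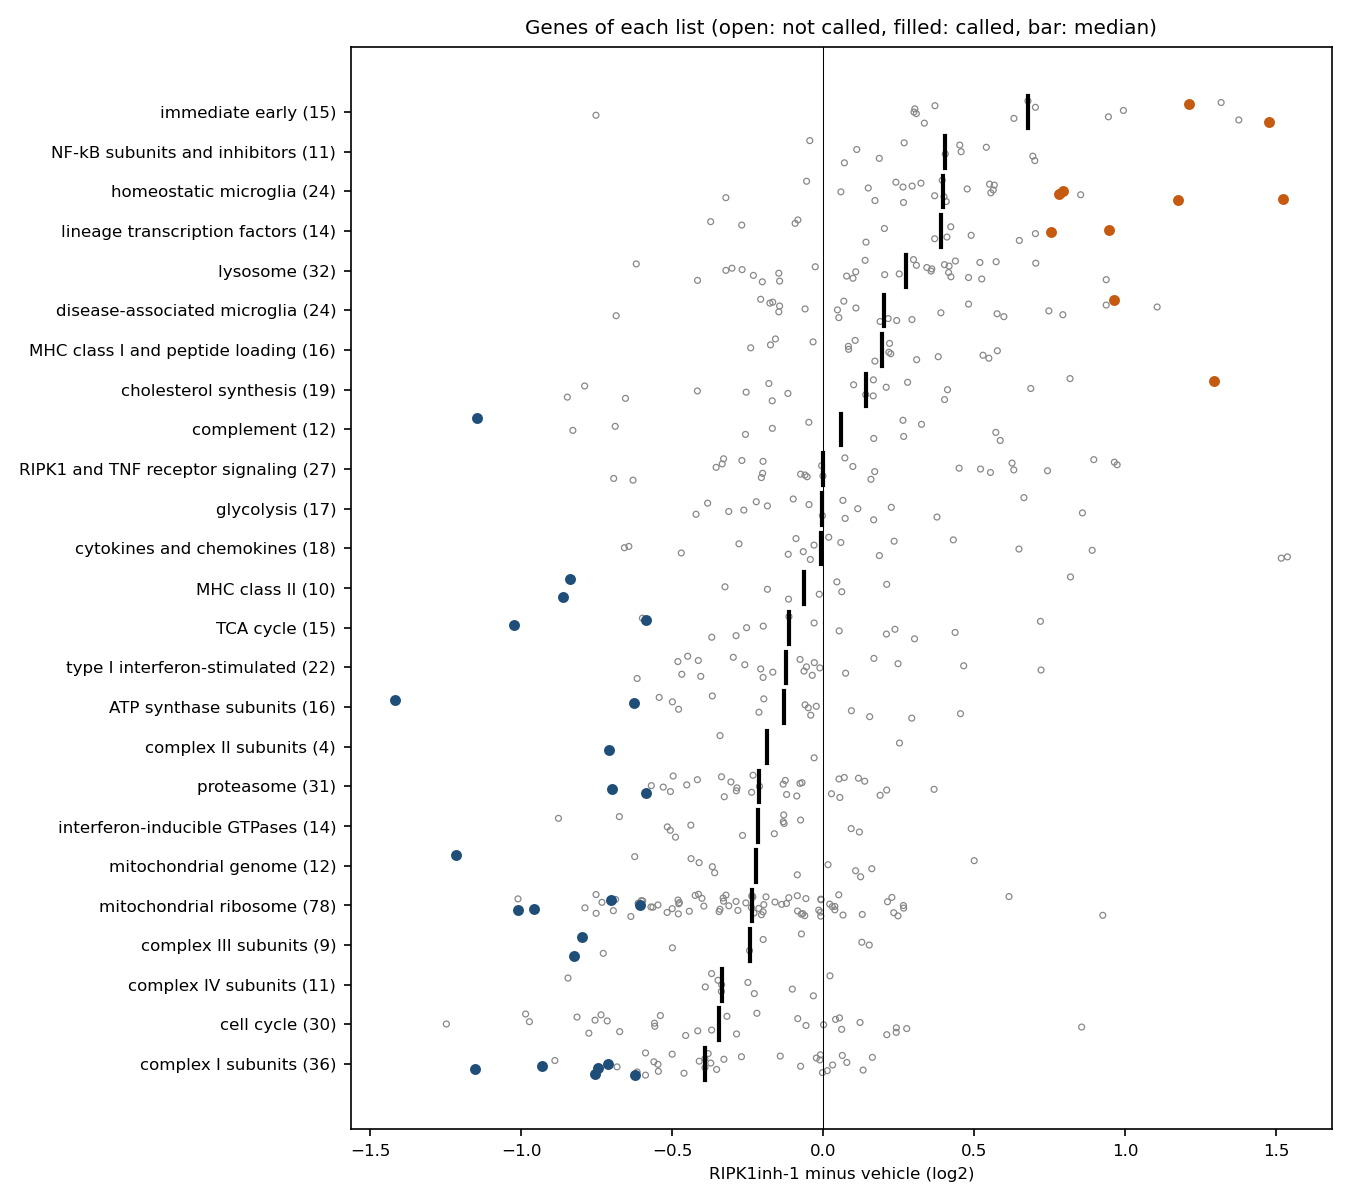
Difference between EAE-RIPK1inh-1 and EAE-vehicle (log2) for each gene of 25 lists, with the number of genes in parentheses. Open points were not called, orange points were called higher and blue points called lower, and black bars are list medians, from -0.39 for complex I subunits to 0.68 for immediate early genes.

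Among 10 genes of MHC class II antigen presentation, Cd74 and H2-Ab1 were called lower (20.0%, beside 3.72% called over all genes described) and the median difference was -0.06. Cd74 is the invariant chain that escorts class II molecules. It was the highest gene of each of the 6 vehicle libraries and of EAE-RIPK1inh-1 library 3, the next gene down in inhibitor libraries 1, 2 and 4 and at rank 5 in library 5. Quantile normalization gives every library the same value at a given rank (15.34 at rank 1, 14.48 at rank 2), so the difference in Cd74 of -0.84 ± 0.23 (p = 0.00279, limma; p = 0.0152, exact permutation) is a step of 1 rank in 3 of the 5 libraries and no step in library 3. H2-Ab1 ran from 12.55 to 13.51 (median 13.31) in the EAE-vehicle libraries and was 12.87, 13.01, 11.64, 12.55 and 11.73 in the EAE-RIPK1inh-1 libraries. H2-Ab1, the beta chain of I-A, differed by -0.86 ± 0.30 (p = 0.011, limma; p = 0.0238, exact permutation) and lost its call without the 3 libraries rich in neutrophil transcripts. Its partner chain H2-Aa was at 11.14, 11.25, 11.04, 11.81 and 11.14 with RIPK1inh-1 and differed by -0.12 (p = 0.593, exact permutation), and H2-Eb1 by -0.01 (p = 0.957, exact permutation). Ciita, the factor that switches on class II genes, differed the other way by 0.82 ± 0.39 (p = 0.0549, limma; p = 0.119, exact permutation). In naive microglia Cd74 was at 6.52 to 7.55 and H2-Ab1 at 4.26 to 5.48, so both stayed far above the naive level in each treated mouse.

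No gene of the type I interferon and interferon-inducible GTPase lists was called. Of 22 type I interferon-stimulated genes 17 were lower in sign with a median of -0.12, and of 14 interferon-inducible GTPases 12 were lower with a median of -0.21. Ifit3 differed by -0.41 (p = 0.119, exact permutation) and Mx1 by 0.72 (p = 0.0758, exact permutation). Tgtp1 ran from 4.68 to 6.22 (median 5.94) in the EAE-vehicle libraries and was 5.20, 5.80, 4.49, 5.87 and 3.12 in the EAE-RIPK1inh-1 libraries, a difference of -0.88 ± 0.45 (p = 0.0738, limma; p = 0.126, exact permutation), with the lowest values in inhibitor libraries 3 and 5. The list mean of the GTPases was 7.13 ± 0.15 (SD, n = 6) with vehicle, 6.83 ± 0.60 (SD, n = 5) with RIPK1inh-1 and 2.42 ± 0.40 (SD, n = 4) in naive microglia. Of 16 genes of MHC class I and peptide loading, 12 were higher in sign, none was called and the median was 0.19.

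Of 12 complement genes Serping1 was called lower (8.33%, beside 3.72% called over all genes described), and the median difference was 0.06. Serping1 encodes the C1 inhibitor, an interferon-induced brake on the classical pathway. Serping1 ran from 5.85 to 7.05 (median 6.40) in the EAE-vehicle libraries and was 4.88, 5.45, 5.18, 7.08 and 3.89 in the EAE-RIPK1inh-1 libraries, a difference of -1.15 ± 0.43 (p = 0.019, limma; p = 0.0541, exact permutation). The inhibitor libraries 1, 2, 3 and 5 were below the vehicle range and library 4 was above it, and the call was lost without the 3 libraries rich in neutrophil transcripts. The naive level was 0.00 to 0.73. C1qa, of the recognition subunit of that pathway, differed by 0.59 (p = 0.175, exact permutation), and C3 by -0.26 (p = 0.539, exact permutation).

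Subunits of the mitochondrial respiratory chain gave more genes called lower than any list above. The chain passes electrons from NADH and succinate to oxygen through complexes I to IV, and ATP synthase uses the resulting proton gradient. Over the 5 complexes, 62 of 76 subunits were lower in sign with RIPK1inh-1, 11 were called lower, none was called higher, and the median difference was -0.34, beside 1.70% called lower and a median of 0.01 over all genes described. In none of the 76 did the groups separate fully, a separation seen in only 0.366% of all genes described. Without the 3 libraries rich in neutrophil transcripts, 3 subunits of complex I, 2 of complex III and 4 of ATP synthase were called lower and none of complexes II and IV. These were 8.33%, 22.2% and 25.0% of their lists, beside 2.73% called over all genes described in that fit. The mean of the 76 was 7.21 ± 0.23 (SD, n = 6) with vehicle, 6.89 ± 0.28 (SD, n = 5) with RIPK1inh-1 and 6.07 ± 0.26 (SD, n = 4) in naive microglia. By library it was 6.93, 7.19, 7.12, 6.53 and 6.69 with RIPK1inh-1, and only libraries 4 and 5 lay below the lowest vehicle value of 6.92.

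Complex I, which takes electrons from NADH, had 30 of 36 subunits lower in sign, 6 called and a median of -0.39. Ndufb4 ran from 4.95 to 6.09 (median 5.12) in the EAE-vehicle libraries and was 4.93, 5.27, 4.40, 3.53 and 3.94 in the EAE-RIPK1inh-1 libraries. This accessory subunit of the membrane arm differed by -0.93 ± 0.33 (p = 0.0138, limma; p = 0.0368, exact permutation), and libraries 1 and 2 were in or next to the vehicle range while 3, 4 and 5 were below it. Ndufa12 differed by -1.15 ± 0.46 (p = 0.0257, limma; p = 0.0368, exact permutation), Ndufa13 by -0.75 ± 0.31 (p = 0.031, limma; p = 0.00433, exact permutation) and Ndufa3 by -0.75 ± 0.32 (p = 0.0336, limma; p = 0.0411, exact permutation). Ndufb7 differed by -0.71 ± 0.30 (p = 0.0328, limma; p = 0.0411, exact permutation) and Ndufa2 by -0.62 ± 0.27 (p = 0.036, limma; p = 0.0693, exact permutation). The 6 called subunits are accessory ones, and the core subunits Ndufv1 and Ndufs1 differed by -0.50 (p = 0.102, exact permutation) and -0.33 (p = 0.0519, exact permutation). Without EAE-RIPK1inh-1 library 4, or without library 5, 1 complex I subunit was called, and without library 2 there were 11. Without library 4 or 5 that was 2.78%, beside 2.42% and 2.3% called over all genes described. Without library 2 it was 30.6%, beside 7.8%. Of the 6 calls, Ndufb4 held in each of the 11 analyses that left out 1 library, and the others in 5 (Ndufb7) to 9 (Ndufa12) of them.

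Complex II is succinate dehydrogenase, and 1 of its 4 subunits was called lower. Sdhb ran from 8.32 to 8.84 (median 8.62) in the EAE-vehicle libraries and was 8.45, 8.67, 7.44, 7.53 and 7.41 in the EAE-RIPK1inh-1 libraries. The iron-sulfur subunit Sdhb differed by -0.71 ± 0.26 (p = 0.0168, limma; p = 0.0303, exact permutation), with libraries 1 and 2 in the vehicle range and 3, 4 and 5 at 7.41 to 7.53, below it. In complex III, Uqcr10 and Uqcrq were called among 9 subunits. Uqcr10 ran from 7.91 to 9.01 (median 8.54) in the EAE-vehicle libraries and was 7.81, 8.10, 8.11, 7.06 and 7.36 in the EAE-RIPK1inh-1 libraries. Uqcr10 (chr11:4701973-4704342), a small subunit of the complex, differed by -0.83 ± 0.26 (p = 0.00615, limma; p = 0.0152, exact permutation) and was called in each of the 22 alternatives. Uqcrq differed by -0.80 ± 0.33 (p = 0.0316, limma; p = 0.0606, exact permutation), a call that held in 6 of the 11 analyses that left out 1 library, and Sdhb lost its call without the libraries rich in neutrophil transcripts.

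Complex IV, cytochrome c oxidase, had 10 of 11 nuclear-encoded subunits lower in sign, none called and a median of -0.34. Its widest difference was in Cox7c at -0.85 ± 0.42 (p = 0.0662, limma; p = 0.0584, exact permutation). Of 16 ATP synthase subunits Atp5k and Atp5j were called lower, and the median was -0.13. Atp5k ran from 6.33 to 7.27 (median 6.70) in the EAE-vehicle libraries and was 5.95, 6.42, 5.74, 3.95 and 4.38 in the EAE-RIPK1inh-1 libraries. Atp5k, a small subunit of the membrane part, differed by -1.42 ± 0.49 (p = 0.0121, limma; p = 0.00649, exact permutation), the largest fall of the group. Libraries 1, 3, 4 and 5 were below the vehicle range and library 2 was within it. Atp5j differed by -0.63 ± 0.27 (p = 0.0389, limma; p = 0.0498, exact permutation), a call that held in 4 of the 11 analyses that left out 1 library, whereas Atp5a1 and Atp5b, the chains of the catalytic head, differed by 0.29 (p = 0.152, exact permutation) and 0.15 (p = 0.532, exact permutation).

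Of the 12 genes of the mitochondrial genome with a mean of at least 1, mt-Cytb, the subunit of complex III made in the mitochondrion, was called lower (8.33%, beside 3.72% called over all genes described). mt-Cytb ran from 13.01 to 14.20 (median 13.32) in the EAE-vehicle libraries and was 13.32, 13.71, 11.81, 10.92 and 11.38 in the EAE-RIPK1inh-1 libraries, a difference of -1.22 ± 0.54 (p = 0.0396, limma; p = 0.0671, exact permutation). The call held in 14 of 22 alternatives and in 4 of the 11 analyses that left out 1 library. It was lost without the libraries rich in neutrophil transcripts. The other 11 were not called, with mt-Co1 at 0.02 (p = 0.952, exact permutation) and mt-Co3 at 0.50 (p = 0.654, exact permutation), and the median of -0.22 became 0.05 without EAE-RIPK1inh-1 library 4. The 78 mitochondrial ribosomal proteins had 63 lower in sign and a median of -0.24, and their mean by library was lowest in inhibitor libraries 4 and 5 (4.59 and 4.64). Of them 4 were called lower, namely Mrps12, Mrpl33, Mrpl35 and Mrpl48, or 5.13%, near the 3.72% called over all genes described. Mrps12 ran from 5.74 to 6.37 (median 6.13) in the EAE-vehicle libraries and was 5.66, 5.29, 5.80, 4.97 and 5.36 in the EAE-RIPK1inh-1 libraries, a difference of -0.70 ± 0.21 (p = 0.00418, limma; p = 0.00649, exact permutation). Mrpl35 differed by -0.96 ± 0.34 (p = 0.013, limma; p = 0.0325, exact permutation), Mrpl48 by -0.61 ± 0.22 (p = 0.0158, limma; p = 0.0195, exact permutation) and Mrpl33 by -1.01 ± 0.47 (p = 0.0495, limma; p = 0.0909, exact permutation). The call on Mrpl33 held in 2 and that on Mrpl48 in 7 of the 11 analyses that left out 1 library, and Mrps12 was the only one of these 4 called without the libraries rich in neutrophil transcripts.

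In the tricarboxylic acid cycle Sucla2 and Mdh2 were called lower among 15 genes (13.3%, beside 3.72% called over all genes described), by -1.03 ± 0.44 (p = 0.0337, limma; p = 0.0303, exact permutation) and -0.59 ± 0.22 (p = 0.0191, limma; p = 0.0195, exact permutation), and the median was -0.11. Each call held in 5 of the 11 analyses that left out 1 library, neither held without the libraries rich in neutrophil transcripts, and the median was 0.07 without EAE-RIPK1inh-1 library 3. Citrate synthase (Cs) differed by 0.30 (p = 0.377, exact permutation). The 17 glycolytic genes had none called and a median of 0.00. The groups did not overlap for 1 of them, Eno1, beside 0.366% of all genes described, and this was noted after its values were seen. Eno1 ran from 8.00 to 8.23 (median 8.08) in the EAE-vehicle libraries and was 7.74, 7.52, 7.76, 7.82 and 7.74 in the EAE-RIPK1inh-1 libraries, a difference of -0.38 ± 0.23 (p = 0.121, limma; p = 0.00216, exact permutation) that is under the fold cutoff. Of 31 proteasome genes 22 were lower in sign and 6.45% were called, near the 3.72% over all genes described. Psmb6 and Psma7, both of the core particle, were called lower at -0.70 ± 0.24 (p = 0.0117, limma; p = 0.0238, exact permutation) and -0.59 ± 0.23 (p = 0.0232, limma; p = 0.0108, exact permutation), and neither call held without the libraries rich in neutrophil transcripts.

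The genes of the respiratory chain have short transcripts, and shorter genes had lower differences throughout the table. Median exon length was 1737 bases for the 76 subunits and 4251 for all genes described. The 1936 shortest protein-coding genes (204 to 2479 bases) had a median difference of -0.11, with 30 called higher and 52 lower. The 1934 longest (7556 to 41324 bases) had a median of 0.09, with 53 called higher and 25 lower. FPKM divides by exon length, and the part of length in the differences of the respiratory genes was not tested.

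**Figure D5:**
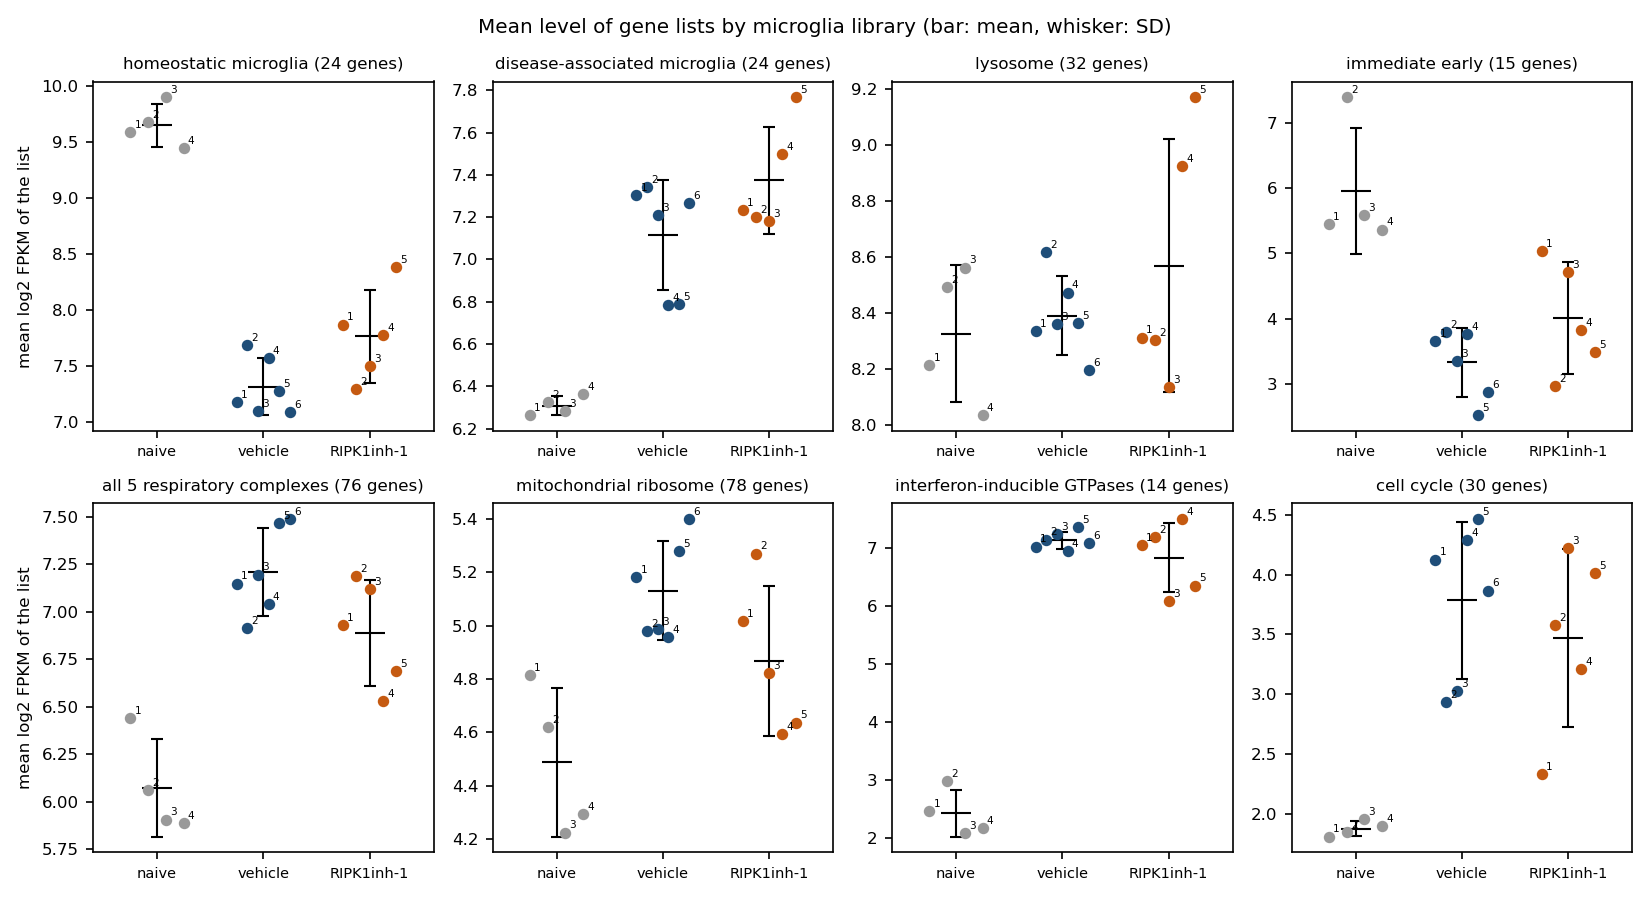
Mean level (log2 FPKM) of 8 gene lists in each microglia library, numbered by replicate, with group means (bars) and SD (whiskers). Inhibitor library 5 was the highest EAE library for homeostatic, disease-associated and lysosomal genes, libraries 4 and 5 were the lowest EAE libraries for respiratory and mitochondrial ribosome genes, and the EAE groups overlapped in all 8 lists.

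The promoters of the called respiratory and homeostatic genes were searched for the core motif of NRF1, a factor known for nuclear genes of the respiratory chain (GCGCATGC), and of PU.1, the myeloid master factor (GAGGAAGT), on both strands of the 250 bases before the RefSeq start. The NRF1 core stood in 8 of the 62 respiratory subunits with a promoter in the table (12.9%), against 446 of 8030 genes described (5.55%) and 2.56% of all 27025 genes with a promoter. It was in 2 of the 9 called subunits with a promoter, Sdhb and Atp5k, and is shown in capitals in 30 bases on the gene's strand, from GRCm38.p6. In Sdhb the match is on the other strand, and in Atp5k a match on each strand overlaps the other. The PU.1 core was in 1 of the 9, Atp5j, and in none of the 18 homeostatic genes with a promoter, against 3.3% of the genes described. These windows were not all upstream of the annotated gene. Of their 250 bases, 68 for Sdhb, 49 for Atp5k and 250 for Atp5j lay in the gene's own annotated exon. The bases shown for Sdhb and Atp5j lie within the annotated gene, and those for Atp5k partly so. Another promoter window of Atp5j, before the annotated gene, held neither core. A match is a description of the letters and not evidence of binding.
Sdhb (NRF1 core on the other strand, chr4:140961206-140961235, + strand, 46 bases before the start): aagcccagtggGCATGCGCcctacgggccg
Atp5k (NRF1 core on both strands, chr5:108434430-108434459, - strand, 40 bases before the start): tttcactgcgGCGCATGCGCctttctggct
Atp5j (PU.1 core on the other strand, chr16:84835000-84835029, - strand, 34 bases before the start): acttaccctccACTTCCTCctcctgtttgg

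Genes of the cell cycle and of cholesterol synthesis had medians of opposite sign. Of 30 cell cycle genes 20 were lower in sign, none was called and the median was -0.34, and Mki67, which marks dividing cells, differed by -0.46 (p = 0.429, exact permutation) with values of 1.22, 3.35, 3.75, 1.33 and 2.97 with RIPK1inh-1. Of 19 cholesterol genes the median difference was 0.14, and over those of them with a mean of at least 3 it was -0.14. Sqle, which encodes squalene epoxidase, differed by -0.42 (p = 0.53, exact permutation).

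Outside the lists, the 10 protein-coding genes called higher with the smallest p among those with a mean of at least 3 included Mtdh, Ifi27, Acox3, Luc7l2, Map1lc3a, Btk, Rgs2 and Ifnar2 beside Siglech and Olfml3. Mtdh ran from 4.44 to 5.28 (median 4.90) in the EAE-vehicle libraries and was 5.33, 5.82, 5.67, 5.50 and 6.20 in the EAE-RIPK1inh-1 libraries. Mtdh encodes an adaptor implicated in NF-kB signaling, the groups did not overlap and the difference was 0.85 ± 0.21 (p = 0.0013, limma; p = 0.00433, exact permutation). Map1lc3a, an autophagosome protein, ran from 3.51 to 4.36 (median 3.99) in the EAE-vehicle libraries and was 5.07, 4.70, 4.59, 4.47 and 4.97 with RIPK1inh-1, again without overlap, a difference of 0.79 ± 0.23 (p = 0.00476, limma; p = 0.00433, exact permutation). Luc7l2, a splicing factor, differed by 0.95 ± 0.28 (p = 0.00454, limma; p = 0.00433, exact permutation) with each inhibitor value above the vehicle range.

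Several of these genes act in immune signaling. Btk ran from 2.68 to 4.79 (median 3.96) in the EAE-vehicle libraries and was 4.70, 4.97, 5.02, 5.37 and 5.05 in the EAE-RIPK1inh-1 libraries. This kinase of B cell and Fc receptor signaling, which microglia also express, differed by 1.09 ± 0.33 (p = 0.00514, limma; p = 0.00649, exact permutation) and had 4 of 5 inhibitor values above the vehicle range. Ifnar2, a chain of the type I interferon receptor, differed by 0.79 ± 0.25 (p = 0.00649, limma; p = 0.0195, exact permutation). Ifi27, an interferon-induced mitochondrial protein, was 5.69, 4.94, 6.09, 5.76 and 5.25 with RIPK1inh-1 against a vehicle range of 3.00 to 5.18 and a naive range of 6.29 to 7.17, a difference of 1.24 ± 0.34 (p = 0.00274, limma; p = 0.00866, exact permutation). Rgs2, a regulator of G protein signaling, differed by 0.82 ± 0.25 (p = 0.0056, limma; p = 0.0238, exact permutation), and Acox3, a peroxisomal oxidase, by 1.06 ± 0.31 (p = 0.00371, limma; p = 0.0108, exact permutation). The largest rises beside Cx3cr1 and Jun were in Arhgef2, a microtubule-bound exchange factor, at 1.52 ± 0.58 (p = 0.0203, limma; p = 0.0455, exact permutation), Apbb1ip, an adaptor of integrin activation, at 1.499 ± 0.59 (p = 0.0238, limma; p = 0.0455, exact permutation), and Rtn4rl1, a Nogo receptor homolog, at 1.39 ± 0.49 (p = 0.0129, limma; p = 0.0216, exact permutation). Arhgef2 and Apbb1ip had their highest values in libraries 3, 4 and 5, and in both genes library 2 was within the vehicle range or below it. The calls on Mtdh, Luc7l2, Map1lc3a, Btk, Ifnar2, Ifi27 and Acox3 held in each of 22 alternatives. Those on Rgs2 and Rtn4rl1 held in 21, on Arhgef2 in 19 and on Apbb1ip in 17. Without the libraries rich in neutrophil transcripts Apbb1ip differed by 0.71.

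The 10 called lower with the smallest p were 1110038F14Rik, Ube2v1, Cd74, Mrps12, Uqcr10, Tmsb10, Tars, Thoc6, Wdr18 and Serpina3g. 1110038F14Rik ran from 5.28 to 5.90 (median 5.39) in the EAE-vehicle libraries and was 4.57, 4.38, 4.66, 5.02 and 4.65 in the EAE-RIPK1inh-1 libraries, a difference of -0.81 ± 0.20 (p = 0.00128, limma; p = 0.00216, exact permutation). The exact p of 0.00216 is the smallest that these 11 mice can give. Ube2v1 ran from 7.19 to 7.82 (median 7.43) in the EAE-vehicle libraries and was 6.92, 7.09, 6.27, 6.81 and 6.76 in the EAE-RIPK1inh-1 libraries, a difference of -0.69 ± 0.18 (p = 0.00198, limma; p = 0.00216, exact permutation). Ube2v1 is a cofactor in the making of the lysine-63 ubiquitin chains used in TNF receptor signaling, and its groups did not overlap either. Serpina3g, a serine protease inhibitor induced by interferon, ran from 6.75 to 7.75 (median 7.42) in the EAE-vehicle libraries and was 4.76, 6.69, 5.93, 7.62 and 5.76 with RIPK1inh-1, a difference of -1.21 ± 0.39 (p = 0.00798, limma; p = 0.0281, exact permutation). Inhibitor library 4 lay within the vehicle range, and the naive level was 0.00 to 0.27. The call on 1110038F14Rik held in each of 22 alternatives, that on Serpina3g in 21 and that on Ube2v1 in 20. Without the libraries rich in neutrophil transcripts Ube2v1 differed by -0.48, under the fold cutoff.

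The others have housekeeping roles or none that is well known in microglia. Tmsb10, an actin-sequestering peptide, differed by -0.69 ± 0.22 (p = 0.00647, limma; p = 0.0216, exact permutation), and Tars, the threonyl-tRNA synthetase, by -0.72 ± 0.23 (p = 0.00702, limma; p = 0.00866, exact permutation). Thoc6, of the mRNA export complex, differed by -0.88 ± 0.28 (p = 0.0074, limma; p = 0.0173, exact permutation) and Wdr18, of ribosome biogenesis, by -0.91 ± 0.29 (p = 0.00755, limma; p = 0.00433, exact permutation). The largest falls beside Atp5k were in Ppp1r35 at -1.63 ± 0.64 (p = 0.0236, limma; p = 0.0563, exact permutation), Clybl, a mitochondrial lyase, at -1.53 ± 0.70 (p = 0.0467, limma; p = 0.0952, exact permutation), Prmt7, an arginine methyltransferase, at -1.38 ± 0.56 (p = 0.0276, limma; p = 0.00866, exact permutation), and Gramd3 at -1.34 ± 0.48 (p = 0.0138, limma; p = 0.026, exact permutation). Clybl was 4.55, 5.15, 1.31, 1.97 and 1.83 with RIPK1inh-1, so library 1 was within the vehicle range of 3.64 to 5.03, library 2 was above it and 3, 4 and 5 were below 2, and its call held in 3 of 11 analyses without 1 library. Thoc6 and Wdr18 kept their call in each of 22 alternatives. Gramd3 kept it in 21, Tmsb10 and Tars in 20, Prmt7 in 18 and Ppp1r35 in 16. Without the libraries rich in neutrophil transcripts Tars differed by -0.53, under the fold cutoff, Prmt7 by -0.61 and Gramd3 by -0.86.

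The groups did not overlap in 38 genes, 0.366% of those described, 22 of them higher and 16 lower with RIPK1inh-1. The widest were at low levels and were named after their values were seen. Pim3, a kinase, ran from 0.00 to 1.39 (median 0.00) in the EAE-vehicle libraries and was 3.01, 2.12, 2.29, 2.77 and 2.68 with RIPK1inh-1, a difference of 2.24 ± 0.58 (p = 0.00169, limma; p = 0.00433, exact permutation). Ints5, of the Integrator complex, differed by 2.05 ± 0.46 (p = 0.000495, limma; p = 0.00216, exact permutation) and Ctu1, a tRNA thiolase, by 1.90 ± 0.48 (p = 0.00137, limma; p = 0.00216, exact permutation). The means of Ints5 and Ctu1 over the 11 libraries were 1.21 and 1.32, close to the lower bound for inclusion. With vehicle the means of Pim3, Ints5 and Ctu1 were 0.33, 0.28 and 0.46, near no signal. These genes passed the bound only through the EAE-RIPK1inh-1 libraries, so their differences and p-values are not support for an effect. Without EAE-RIPK1inh-1 library 2, 221 genes had no overlap. Smaller groups separate more often by chance, so this count cannot be set against 38.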

How the data were processed

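RNA of sorted microglia was amplified by a SMART-seq2-type method from poly(A) RNA, which keeps no strand, so overlapping genes on opposite strands share reads. The authors ran quality control, alignment, quantification and normalization in OmicSoft Array Studio and deposited log2 FPKM values, 1 column per library. In the deposited table every library holds the same sorted values, which shows quantile normalization over all 30 libraries. The aligner, the annotation release and the offset before the logarithm are not given in the sources used here. The depth of each library is unknown, so no counting error was computed. In the deposited annotation, 56.7% of the genes described are marked as confounded with another gene.

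Groups were compared with limma 3.58.1 in R 4.3.3 (lmFit, eBayes with a variance trend) over all 15 microglia libraries, without pairing, and p-values were adjusted over 28958 genes by Benjamini-Hochberg. Nothing says what the mice of a group shared beyond its treatment. Single genes were also compared by an exact two-sided permutation test that used each possible division of the 11 mice into groups of 5 and 6. The study's methods name a paired test. Vehicle and inhibitor libraries of the same number deviated together (r over 0.1) in 1 of 5 pairs. The fit was tested on simulated data. Positions of 58 of 58 named genes matched a GRCm38 annotation.

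The members and gene lists were chosen with earlier results of these data known. Named genes were Ripk1, Ripk3 and Mlkl, each called gene of a list with a few well-known uncalled members, and, among called protein-coding genes with a mean of at least 3, the 10 with the smallest p and the 5 widest differences in each direction. Markers that were called were named too. Some genes that this rule takes in are not reported here. The B cell, dendritic cell, border macrophage, endothelial, erythrocyte, astrocyte and oligodendrocyte marker lists had 0 called genes. Alternatives changed the filter, the offset, the floor, the scaling, the libraries in the fit, the variance model, the weights and the pairing, and left out libraries.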

Additional observations from a re-analysis of the deposited data

Results flagged for a closer look

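In 9 of 166 checks of a named gene or list mean within 1 group, 1 library stood apart from the others of its group by a gap test at the 95% level, which flags about 1 group in 20 by chance. EAE-RIPK1inh-1 library 2 stood below the others of its group for Klf6 (5.23), Runx1 (3.53) and Rgs2 (5.10). It is also the library whose removal gave the most called genes, 810. Ndufa12 was low in EAE-vehicle library 2 (7.18). Prmt7 was high in EAE-vehicle library 3 (5.30) and low in EAE-RIPK1inh-1 library 3 (0.63). The mean of the RIPK1 and TNF receptor signaling list was low in EAE-vehicle library 4 (3.83), and that of the TCA cycle list was low in EAE-vehicle library 3 (4.98) and EAE-RIPK1inh-1 library 3 (5.03), both among the libraries with neutrophil markers above 7.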

How the results depend on the processing

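Of the 55 called genes that the naming rule takes in, 17 kept the call under each alternative and 26 in each analysis without 1 library. No named call changed direction. Ripk3, which was not called, turned to -0.52 with library weights and -0.24 without the 3 libraries rich in neutrophil transcripts, and ran from -0.28 (without EAE-vehicle replicate 3) to 0.35 without 1 library. Library weights raised the count called to 2266, with 1226 higher and 1040 lower, and the count with an adjusted p under 0.05 from 0 to 78 (46 higher, 32 lower). They moved by more than the spread between replicates the medians of 7 lists, to 0.49 for disease-associated microglia, -0.73 for complex I, -0.56 for complex III, -0.65 for complex IV, -0.41 for ATP synthase, -0.58 for the mitochondrial ribosome and -0.038 for cholesterol synthesis. The lysosome median became 0.57, with 14 genes called higher and 2 lower, or 50.0% called, beside 21.8% over all genes described. Fitting only genes with a mean of at least 3 gave 208 called, 102 higher and 106 lower. At that level the main fit had called about as many. It had 88 called higher and 71 lower at a mean of 3 to 6, and 15 and 35 at 6 and over. The cholesterol median over genes with a mean of at least 3 was -0.14, as the filter takes genes out of the list and leaves each gene's difference unchanged. Raising values to the highest no-signal level moved the cholesterol median to -0.044. Fitting the 11 EAE libraries alone called 265 genes lower. Without 1 library the count called ran from 239 to 810 (119 to 433 higher, 120 to 377 lower), and the count without overlap from 52 to 221. Leaving out the 3 libraries rich in neutrophil transcripts, an alternative added after the data were seen, left 283 called, and 261 genes without overlap, and 32 genes of the naming rule lost their call. Smaller groups separate more often by chance, so the counts without overlap in these alternatives cannot be set against the 38 of the full comparison. What same-numbered libraries shared beyond a number is not stated. Their deviations correlated at -0.08 to 0.15 and 2 of 5 inhibitor libraries were most like their own number, which cannot show whether the mice were paired. With the replicate block 331 genes were called (207 higher, 124 lower), none with an adjusted p under 0.05, and 17 genes of the naming rule lost their call. Gaps in signal between libraries limit what can be said of genes near the lower bound of 1.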

Other observations

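Several highly expressed genes outside the lists and the naming rule were called, and are given after their values were seen. Malat1, a nuclear long noncoding RNA, differed by 1.15 ± 0.52 (p = 0.043, limma; p = 0.0455, exact permutation) and had a naive mean of 11.95 against 9.84 with vehicle and 10.99 with RIPK1inh-1. Gm37376 differed by 1.18, and it lies within Malat1 on the opposite strand, so the libraries cannot tell the 2 apart. mt-Rnr2, the large ribosomal RNA of the mitochondrion, differed by 1.13 ± 0.34 (p = 0.0046, limma; p = 0.00649, exact permutation), while 7 of the 12 protein-coding genes of the same genome were lower in sign.

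Called lower at high levels were Il2rg, the common chain of several interleukin receptors, at -0.78 ± 0.27 (p = 0.012, limma; p = 0.026, exact permutation) with a naive mean of 5.23 against 9.74 with vehicle, and Pfn1 and Cyba, an actin regulator and a subunit of the phagocyte NADPH oxidase, at -0.63 and -0.60. Atpif1, the inhibitor of ATP synthase, was called lower at -0.80 ± 0.27 (p = 0.0111, limma; p = 0.0108, exact permutation).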
